A study of Drosophila melanogaster with 30 samples.

Results

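ovo, otu, stil, Sxl and snf are the fly genes best known for setting and keeping the female identity of the germline. They were taken by symbol from the 4 expression tables of a study of Ovo in Drosophila melanogaster ovarian cells. The 5 genes are 5 of the 17807 gene rows that each table holds, and all 5 were present in every table. Their levels were read in 30 libraries of 9 conditions, and conditions were compared within a table.

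As background, ovo encodes a zinc-finger transcription factor. From separate promoters the locus makes the germline forms Ovo-A, a repressor, and Ovo-B, an activator, and the epidermal form Shavenbaby, which shapes cuticle hairs. otu is a known target of Ovo and encodes a deubiquitinase with RNA-binding activity that female germ cells need to proliferate and differentiate. stil encodes a nuclear protein that female germ cells need to survive. Sxl encodes the RNA-binding protein that acts as the female switch of the fly, and it keeps itself on by splicing its own transcript. snf encodes a protein shared by the U1 and U2 small nuclear ribonucleoproteins (snRNPs) of the spliceosome, and female germ cells need it for this self-splicing of Sxl.

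In BDGP6 coordinates from the Ensembl annotation, 4 of the 5 genes lie on the X chromosome. ovo (FBgn0003028) spans X:5048273-5070929 on the plus strand, with 5 annotated transcripts, and lncRNA:CR44833 lies on the opposite strand there. otu (FBgn0003023) spans X:8485008-8489535 on the minus strand, and snf (FBgn0003449) spans X:5309242-5310501 on the plus strand. Sxl (FBgn0264270) spans X:7074550-7098053 on the minus strand, with 25 annotated transcripts. Its exonic overlap on the same strand was 161 bases, summed over mir-4956 and genes without a name. stil (FBgn0003527) spans 2R:12570367-12571883 on the plus strand. The tables count reads per gene and per strand, so they do not separate Ovo-A, Ovo-B and Shavenbaby transcripts, or the female and male splice forms of Sxl.

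The sorted cells were vas-GFP-positive (vas-GFP+) and vas-GFP-negative (vas-GFP−) cells of pooled ovaries from w flies with an EGFP tag at the endogenous vas locus, 3 libraries each. Vas is an RNA helicase of germ cells, so the gate itself used a germline gene. The number of flies per library and the age of the flies are not given in the sources used here. The cultured cells were fGS/OSS, a mixed culture of female germline stem cells and ovarian somatic sheet cells, OSCs labelled l(3)mbt knockout (Δl(3)mbt OSCs), and wild-type OSCs, a line of ovarian somatic cells, with 4 libraries each. These 18 libraries were made from total RNA depleted of ribosomal RNA. The remaining 12 were made from poly(A) RNA 48 h after nucleofection of OSCs or Δl(3)mbt OSCs with ovo-FLAG (FLAG-tagged Ovo-B under the act5C promoter) or the empty vector, 3 libraries each. All cells were female. For the sorted cells, the lines and the transfected cells the study calls its replicates distinct samples. The study does not say whether that means separate cultures or sorts. The p-values measure the spread between these libraries.

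Counted reads per library ranged from 3236770 to 6203768 in vas-GFP+ cells and from 8386303 to 13053953 in vas-GFP− cells, from 9675832 to 23083772 in the untransfected lines, and from 1632058 to 17005949 in the transfected cells, where an empty-vector library of Δl(3)mbt OSCs was the shallowest. The variance between replicates was 1.52 to 83.1 times the variance of counting alone (median 4.96), so no pair of libraries looked like a copy. The 3 highest ratios, 57.0, 67.4 and 83.1, were those of OSC replicate 1 with the other OSC libraries, so this library stood apart, and it belongs to the control of 2 comparisons. Without it ovo changed by 7.13 on the log2 scale in fGS/OSS and 6.45 in Δl(3)mbt OSCs, and Sxl by 0.29 in Δl(3)mbt OSCs, all still called. The 9 germline markers summed to 21943 to 23521 normalized counts in vas-GFP+ cells, against 395 to 458 in vas-GFP− cells. The 9 markers of the ovarian soma summed to 5223 to 6623 normalized counts in vas-GFP+ cells, against 142788 to 151071 in vas-GFP− cells, and the part of these remaining somatic and germline reads in the results was not tested. In the lines the germline markers summed to 3052 to 3197 in fGS/OSS and 2652 to 2812 in Δl(3)mbt OSCs, against 250 to 375 in OSCs. In fGS/OSS bam and vas made up most of that sum, and nos averaged 4.75 normalized counts. Across mixed cells, fewer cells of a type and less RNA per cell cannot be told apart. The l(3)mbt gene itself averaged 5724 ± 215 normalized counts in Δl(3)mbt OSCs and 5770 ± 774 in OSCs (SD, n = 4 each), so its level does not check the label. The study describes a deletion of l(3)mbt in these cells, and its extent is not given in the sources used here.

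Values below are normalized counts, that is, reads of a gene divided by the size factor of its library, or reads per 1000000 counted reads (RPM). Changes are log2 fold changes from limma, fitted to log2(normalized count + 1), with the standard error (SE). Adjusted p-values (Benjamini-Hochberg) cover every gene tested in that comparison. A gene was called at an adjusted p under 0.05.

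In the sorted cells 4 of the 5 genes, ovo, otu, stil and Sxl, were called higher in vas-GFP+ than in vas-GFP− cells, and snf was not called. Of the 10481 genes tested there, 16.0% were called higher and 19.7% lower. otu and stil were below the filter of a mean of 2 normalized counts in all comparisons of cultured cells except that of ovo-FLAG in Δl(3)mbt OSCs. Of the 3 genes tested in fGS/OSS against OSCs, ovo was called higher and snf lower, where 30.3% and 31.3% of 9533 genes were called higher and lower. Between Δl(3)mbt OSCs and OSCs, ovo and Sxl were called higher in Δl(3)mbt OSCs and snf was not called, against 19.4% higher and 17.2% lower of 9592 genes. In fGS/OSS against Δl(3)mbt OSCs, ovo was called higher and Sxl and snf lower, against 34.4% higher and 36.3% lower of 9620 genes. With ovo-FLAG in OSCs, ovo was called higher and Sxl and snf were not called, against 13.2% higher and 10.3% lower of 9025 genes. With ovo-FLAG in Δl(3)mbt OSCs, ovo, stil and snf were called higher and otu and Sxl were not called, against 16.2% higher and 14.2% lower of 9290 genes. In these ovo-FLAG comparisons the ovo count includes reads of the plasmid, so a higher ovo was built into the design. The comparisons of fGS/OSS and of Δl(3)mbt OSCs with OSCs share the same 4 OSC libraries.

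**Figure D1:**
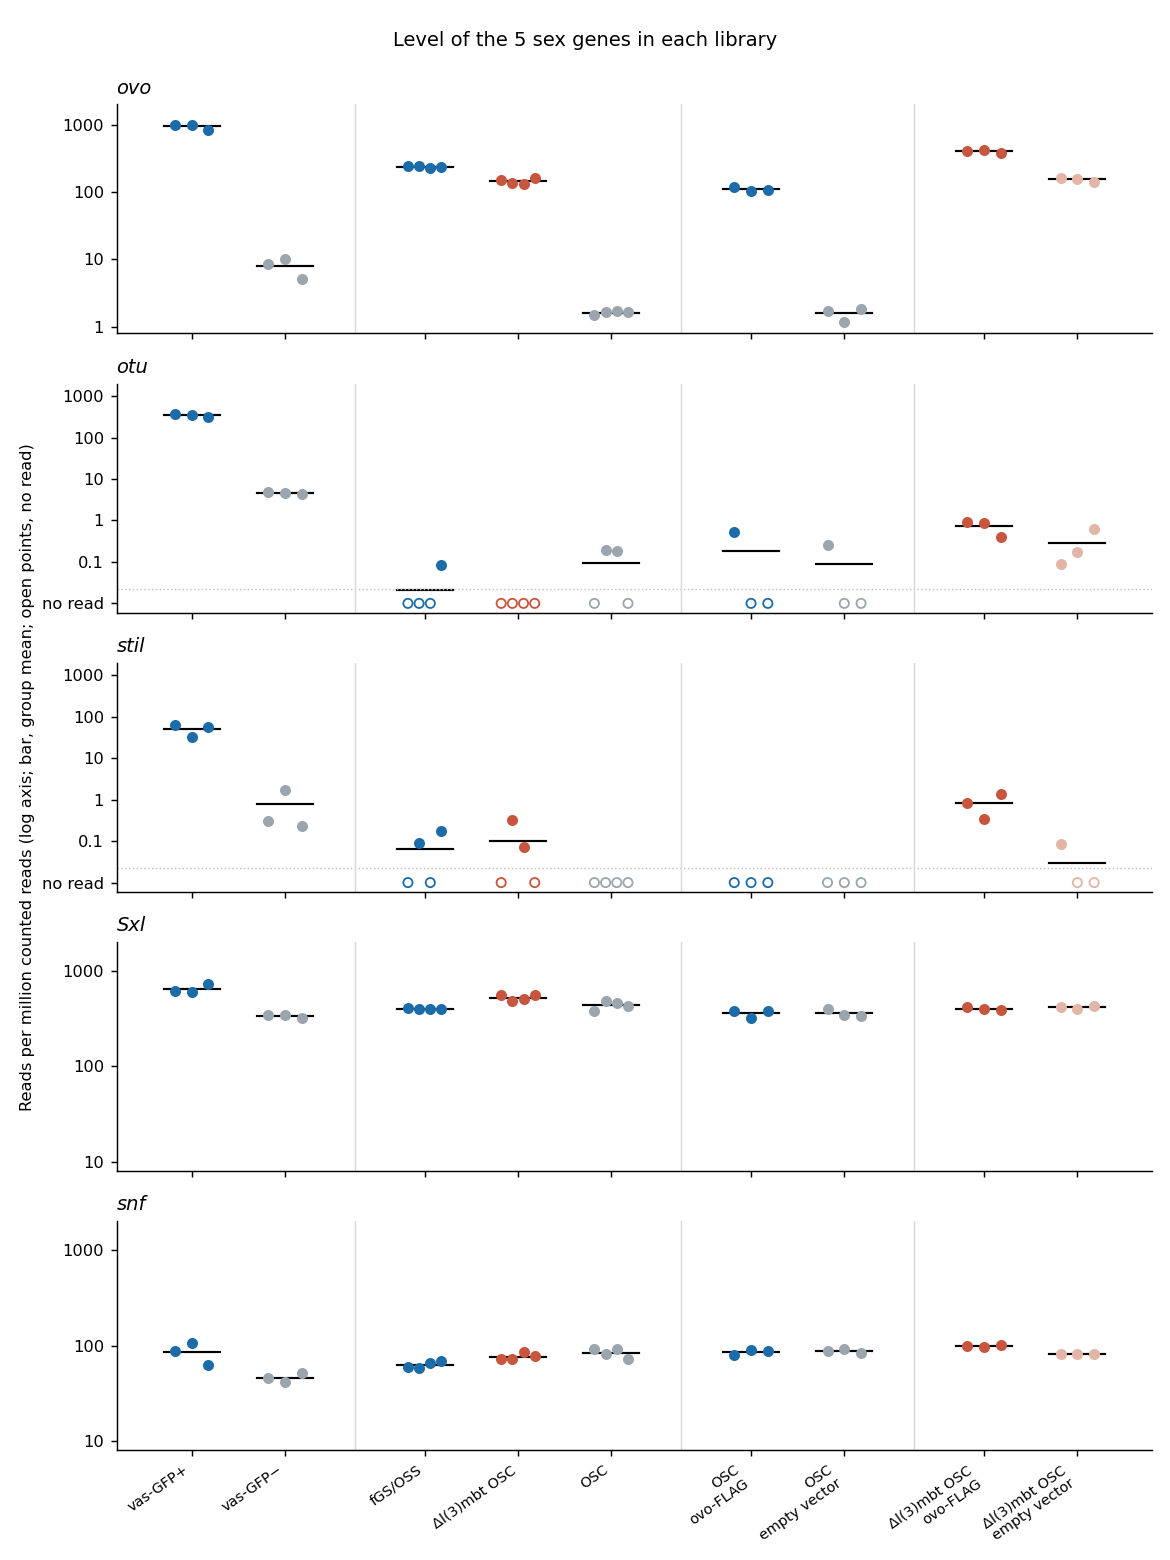
Level of each of the 5 genes, in RPM (reads per 1000000 counted reads, y axis, logarithmic), in each of the 30 libraries, by condition (x axis). Points are libraries, black bars are group means, open points are libraries with no read, and vertical lines part the tables that were normalized separately. ovo, otu and stil differ by orders of magnitude between conditions, while Sxl (318 to 722) and snf (41.5 to 107) are present in every library.

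By the fold of the means ovo differed most of the 5 genes between the sorted cells. It had 5676, 5738 and 4864 normalized counts in the vas-GFP+ libraries, against 66.6, 78.3 and 40.5 in the vas-GFP− libraries. The groups were far apart, with the lowest vas-GFP+ library well above the highest vas-GFP− library. The means of 5426 ± 488 and 61.8 ± 19.3 (SD, n = 3 each) differed 87.8-fold, and the log2 fold change was 6.48 (SE 0.24, adjusted p = 1.61e-06). ovo ranked 21 by log2 fold change among the genes tested there.

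In the lines, ovo had 3014, 3028, 2839 and 2882 normalized counts in fGS/OSS and 1957, 1753, 1613 and 2043 in Δl(3)mbt OSCs, against 17.4, 20.05, 20.1 and 19.9 in OSCs. Both lines stood clear of OSCs, and every fGS/OSS library lay above every Δl(3)mbt library. ovo was higher than in OSCs by 7.18 on the log2 scale in fGS/OSS (SE 0.09, adjusted p = 1.44e-13) and by 6.50 in Δl(3)mbt OSCs (SE 0.12, adjusted p = 2.56e-13). In fGS/OSS against Δl(3)mbt OSCs, the fold of the means was 1.60 and the log2 fold change 0.68 (SE 0.06, 95% interval 0.55 to 0.82, adjusted p = 5.68e-08). The low level in OSCs rested on 17 to 34 reads per library, so ovo reads were present there but few.

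In the transfected cells the ovo count includes reads of the plasmid, and the gene-level tables do not part these from the endogenous gene. ovo had 699, 612 and 636 normalized counts with ovo-FLAG in OSCs, against 10.2, 7.12 and 11.2 with the empty vector. Δl(3)mbt OSCs had 2465, 2499 and 2231 with ovo-FLAG, against 1015, 969 and 871 with the empty vector. The groups did not overlap in either line. The log2 fold change was 5.97 in OSCs (SE 0.17, adjusted p = 1.24e-14) and 1.33 in Δl(3)mbt OSCs (SE 0.06, adjusted p = 1.5e-11).

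The effect in Δl(3)mbt OSCs minus that in OSCs was −4.64 on the log2 scale (SE 0.16, adjusted p = 3.65e-16), and 9.64% of the 8706 genes tested for such a difference were called. In RPM, a linear scale, the gain with the plasmid ran the other way. ovo gained 248 ± 13.6 RPM in Δl(3)mbt OSCs, where ovo-FLAG cells had 402 ± 20.5 and empty-vector cells 154 ± 11.6 (SD, n = 3 each). It gained 108 ± 4.64 in OSCs, where ovo-FLAG cells had 110 ± 8.03 and empty-vector cells 1.58 ± 0.34. The errors of the gains are SEs. The smaller fold in Δl(3)mbt OSCs thus stood beside a larger gain in reads, and ovo reads were already present there with the empty vector. The 2 gains come from tables normalized apart, and their difference was not tested.

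Placed side by side in RPM, ovo was highest in vas-GFP+ cells (943 ± 95.7), followed by Δl(3)mbt OSCs with ovo-FLAG and then by fGS/OSS (239 ± 5.90). Δl(3)mbt OSCs with the empty vector (141 to 164) and without transfection (130 to 160) came next, and their libraries overlapped. OSCs with ovo-FLAG (104 to 119) lay just under them without overlap. vas-GFP− cells had 7.94 ± 2.56, and wild-type OSCs (1.62 ± 0.10) and OSCs with the empty vector overlapped at the bottom of the order. Total RNA and poly(A) libraries are mixed in this order, so it is a description with no test.

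otu followed the sort and was nearly silent in culture. It had 2081, 2047 and 1811 normalized counts in the vas-GFP+ libraries, against 37.5, 36.6 and 34.9 in the vas-GFP− libraries. The groups were far apart and each was tight, with means of 1980 ± 147 and 36.3 ± 1.32 (SD, n = 3 each), a fold of 54.5 and a log2 fold change of 5.73 (SE 0.16, adjusted p = 3.48e-07).

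In the lines with a high ovo level, otu stayed at the limit of detection. fGS/OSS had 1 otu read in all 4 libraries and Δl(3)mbt OSCs had 0, against 4 reads over the 4 libraries of OSCs. The count of 0 in Δl(3)mbt OSCs allows up to 0.0648 RPM over their 4 libraries. In vas-GFP+ cells otu averaged 344 ± 30.1 RPM. The ratio of fGS/OSS to OSCs was 0.305 per counted read, with an exact 95% interval of 0.00620 to 3.09, so no difference was detectable at this depth. Such intervals and limits cover counting error only.

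With ovo-FLAG in OSCs otu had 2, 0 and 0 reads, against 2, 0 and 0 with the empty vector. Δl(3)mbt OSCs had 8, 5 and 3 reads with ovo-FLAG, against 1, 3 and 1 with the empty vector. On the scale of normalized counts these were 5.59, 5.15 and 2.37 with ovo-FLAG, against 0.542, 1.09 and 3.79 with the empty vector, so the groups overlapped. otu was not called there by limma (log2 fold change 1.05, SE 0.67, 95% interval −0.36 to 2.46, adjusted p = 0.256). The quasi-likelihood test of edgeR on the recovered reads gave 1.98 (adjusted p = 0.0424) and DESeq2 gave 1.94 (adjusted p = 0.191). Over the summed reads, 16 against 5, the level was 0.730 RPM in ovo-FLAG cells and 0.166 in empty-vector cells. Their ratio was 4.39 (exact 95% interval 1.54 to 15.3). Those levels lie far under the 344 RPM of vas-GFP+ cells.

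stil, which female germ cells need to survive, showed the same split between sorted cells and lines. It had 364, 192 and 323 normalized counts in the vas-GFP+ libraries, against 2.38, 13.6 and 1.88 in the vas-GFP− libraries. The groups did not overlap, but the vas-GFP− values rest on 4, 16 and 2 reads. The means of 293 ± 89.5 and 5.96 ± 6.64 (SD, n = 3 each) differed 49.2-fold, and the log2 fold change was 5.76 (SE 0.71, adjusted p = 0.000596). Without vas-GFP− replicate 2, the highest of its group, the log2 fold change was 6.51 (adjusted p = 0.000336).

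In the untransfected lines stil had 0, 1, 0 and 2 reads in fGS/OSS and 0, 4, 1 and 0 in Δl(3)mbt OSCs, against 0 in all 4 libraries of OSCs. Of the 5 reads in Δl(3)mbt OSCs 4 came from 1 library, and the ratio to OSCs had an exact lower 95% bound of 1.16. For fGS/OSS, with 3 reads in all, that bound was 0.505, so no difference from OSCs was detectable at this depth. In transfected OSCs no library had a stil read, which allows up to 0.268 RPM in ovo-FLAG cells and 0.0966 in empty-vector cells.

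stil in Δl(3)mbt OSCs had 7, 2 and 10 reads with ovo-FLAG, against 1, 0 and 0 with the empty vector. These were 4.89, 2.06 and 7.89 normalized counts with ovo-FLAG, against 0.542, 0 and 0 with the empty vector, so the groups did not overlap at this very low level. stil was called higher (log2 fold change 2.23, SE 0.76, 95% interval 0.64 to 3.82, adjusted p = 0.0311). Per counted read the ratio was 26.1 (exact 95% interval 4.15 to 1084), from 0.867 RPM in ovo-FLAG cells and 0.0332 in empty-vector cells. The call was lost under quantile normalization (1.36, adjusted p = 0.123), without the ovo-FLAG replicate 1 (2.17, adjusted p = 0.129) and without the empty-vector replicate 2 (2.13, adjusted p = 0.0681), and without the ovo-FLAG replicate 3 stil did not pass the filter. In vas-GFP+ cells, for scale, stil averaged 51.0 ± 15.9 RPM.

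**Figure D2:**
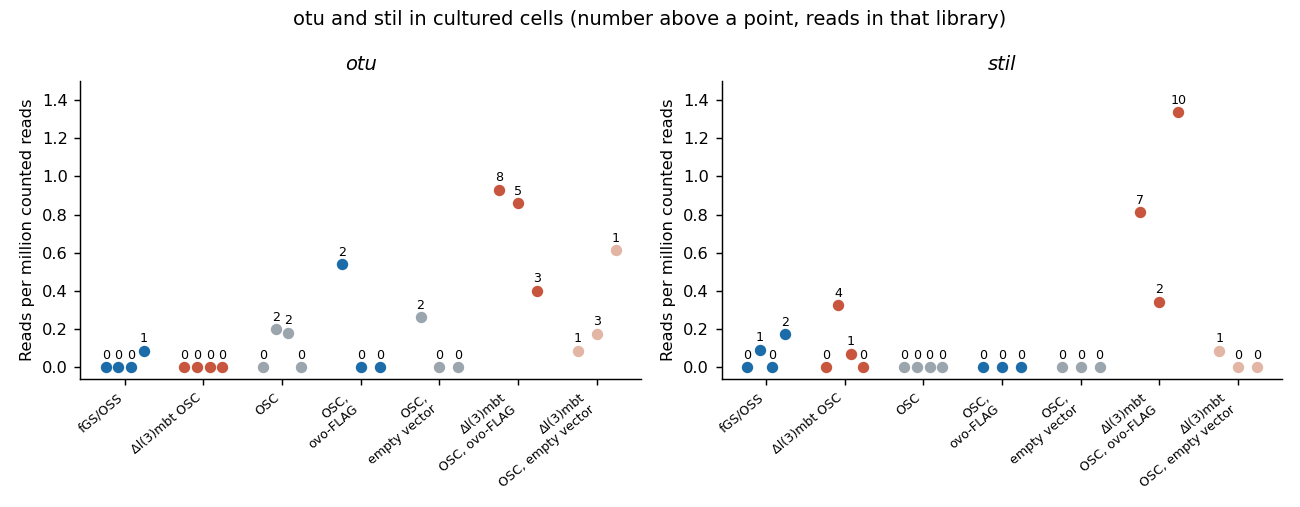
Level of otu (left) and stil (right), in RPM (y axis), in each library of cultured cells, by condition (x axis). Each point is 1 library and the number above it is its count of reads. No point exceeds 1.34 RPM, and the highest of both genes lie in Δl(3)mbt OSCs with ovo-FLAG.

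Sxl, the female switch, was expressed in every library and moved little. It had 3446, 3454 and 4217 normalized counts in the vas-GFP+ libraries, against 2649, 2662 and 2516 in the vas-GFP− libraries. The groups did not overlap, with means of 3705 ± 443 and 2609 ± 80.9 (SD, n = 3 each). The fold was 1.42 and the log2 fold change 0.50 (SE 0.09, 95% interval 0.29 to 0.71, adjusted p = 0.0043). Scaling to total counted reads, chosen after seeing the data, moved the median of all genes by 0.42 on the log2 scale in this comparison and Sxl to 0.94.

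In the lines Sxl had 5028, 4928, 4956 and 4828 normalized counts in fGS/OSS and 7274, 6180, 6249 and 7073 in Δl(3)mbt OSCs, against 4527, 5771, 5381 and 5214 in OSCs. Every Δl(3)mbt library was above every library of fGS/OSS and of OSCs, while fGS/OSS lay within the range of OSCs. Sxl was higher in Δl(3)mbt OSCs than in OSCs (log2 fold change 0.36, SE 0.10, 95% interval 0.15 to 0.57, adjusted p = 0.0106), and the call was lost under quantile normalization (0.22, adjusted p = 0.0534). It was lower in fGS/OSS than in Δl(3)mbt OSCs (−0.44, SE 0.05, adjusted p = 2.03e-06). In fGS/OSS against OSCs it was not called (−0.08, 95% interval −0.26 to 0.10, adjusted p = 0.441), although it was under quantile normalization (−0.21, adjusted p = 0.0202) and without OSC replicate 1 (−0.14, adjusted p = 0.0264).

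With the ovo plasmid the level of Sxl did not move beyond the spread of the replicates. In OSCs it had 2213, 1901 and 2236 normalized counts with ovo-FLAG, against 2414, 2058 and 2049 with the empty vector (log2 fold change −0.04, 95% interval −0.19 to 0.11, adjusted p = 0.765). Δl(3)mbt OSCs had 2529, 2413 and 2275 with ovo-FLAG, against 2591, 2451 and 2650 with the empty vector (−0.09, 95% interval −0.19 to 0.00, adjusted p = 0.135). The groups overlapped in both lines, and the 2 effects did not differ by test (−0.05, adjusted p = 0.782).

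In RPM Sxl spanned a narrow range. Its place in vas-GFP+ cells depends on the scaling, since total counted reads gave the larger change there, so the order of the sorted cells against the lines is not read. vas-GFP+ cells had 599 to 722 RPM and vas-GFP− cells 318 to 344. Among the cultured cells Δl(3)mbt OSCs had 482 to 561. From there down each condition overlapped the next, through OSCs (383 to 484) and fGS/OSS (396 to 405) to the 4 transfected groups (323 to 429).

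snf, the spliceosomal partner of Sxl, was also expressed everywhere. It had 495, 619 and 363 normalized counts in the vas-GFP+ libraries, against 356, 321 and 403 in the vas-GFP− libraries. The groups overlapped, since the lowest vas-GFP+ library was under the highest vas-GFP− library, and snf was not called (log2 fold change 0.42, SE 0.21, 95% interval −0.08 to 0.92, adjusted p = 0.168). It was called without the vas-GFP+ replicate 3 (0.63, adjusted p = 0.0219) and with scaling to total counted reads (0.86, adjusted p = 0.0154).

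In the lines snf had 735, 726, 808 and 846 normalized counts in fGS/OSS and 934, 919, 1069 and 986 in Δl(3)mbt OSCs, against 1075, 982, 1077 and 883 in OSCs. The fGS/OSS libraries lay under all others, whereas Δl(3)mbt OSCs and OSCs overlapped. snf was lower in fGS/OSS than in OSCs (log2 fold change −0.36, SE 0.08, adjusted p = 0.00256) and than in Δl(3)mbt OSCs (−0.33, SE 0.07, adjusted p = 0.000332). Between Δl(3)mbt OSCs and OSCs it was not called (−0.04, 95% interval −0.23 to 0.15, adjusted p = 0.767).

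With ovo-FLAG in OSCs snf had 467, 529 and 526 normalized counts, against 529, 548 and 506 with the empty vector, and the groups overlapped (log2 fold change −0.06, 95% interval −0.22 to 0.10, adjusted p = 0.628). Δl(3)mbt OSCs had 599, 583 and 595 with ovo-FLAG, against 504, 506 and 499.8 with the empty vector. Here all ovo-FLAG libraries were above all empty-vector libraries, and snf was higher (0.23, SE 0.06, 95% interval 0.11 to 0.36, adjusted p = 0.00445). The effect in Δl(3)mbt OSCs minus that in OSCs was 0.29 (SE 0.09, adjusted p = 0.0444). That call was lost in 9 of the 12 fits that left out 1 library and in other settings given in the closing section.

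**Figure D3:**
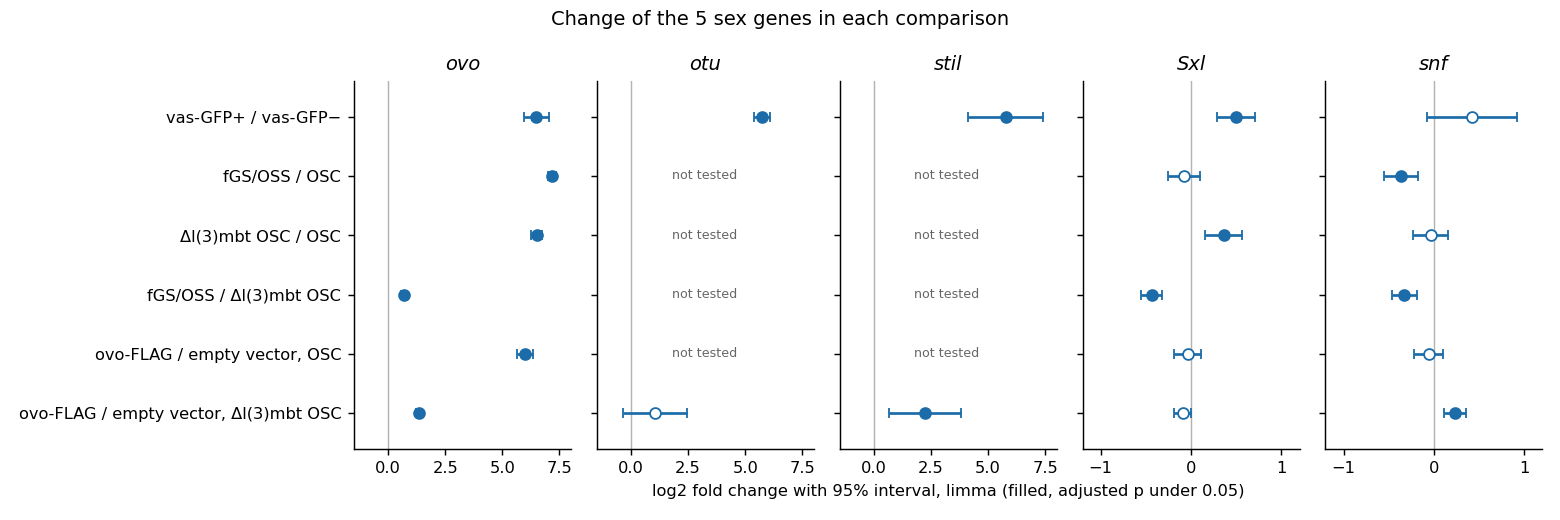
log2 fold change (x axis) of each of the 5 genes (panels) in the 6 comparisons (rows, named as the condition over its control), from limma on log2(normalized count + 1). Bars are 95% intervals, and filled points have an adjusted p under 0.05 over all genes tested. The axis for ovo, otu and stil covers several times the range of that for Sxl and snf, where the largest estimate is 0.50.

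Levels of different genes were compared per kilobase of exon, as normalized counts per kilobase. In vas-GFP+ cells the order was ovo (733 ± 65.9), snf (590 ± 154), otu (579 ± 42.9), Sxl (403 ± 48.2) and stil (250 ± 76.4). ovo and snf, and snf and otu, next to each other there, differed by less than the SD of snf, so their order is not settled. In vas-GFP− cells the order was snf (431 ± 49.6) and Sxl (284 ± 8.80), with otu (10.6 ± 0.39), ovo (8.35 ± 2.61) and stil (5.09 ± 5.67) far below. Somatic cells thus had the splicing genes far above the other 3, and germ cells had ovo and otu at levels like theirs. In all 3 untransfected lines snf was first and Sxl second, with ovo after them at 397 in fGS/OSS and 249 in Δl(3)mbt OSCs, against 2.61 in OSCs. In Δl(3)mbt OSCs with ovo-FLAG, ovo (324 ± 19.7) passed Sxl (262 ± 13.8).

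The other genes of these pathways were read from lists, each described by its counts and its median log2 fold change beside that of all genes tested. No set test was run, and each count stands beside the shares of all genes called that are given above or here. The 9 splicing cofactors and m6A writer genes found, which act with Sxl on splicing, gave 1 call in vas-GFP+ cells, pps (log2 fold change 0.39), with a median of −0.04 beside −0.07 for all genes. In fGS/OSS against OSCs, 2 were higher and 3 lower, from vir, a subunit of the m6A writer (0.57), to the splicing factor Spf45 (−0.44). Spf45 was also the 1 of the 9 called in Δl(3)mbt OSCs against OSCs (−0.27). With ovo-FLAG 3 of the 9 were lower in OSCs, where 10.3% of all genes were lower, with a median of −0.14 beside −0.01. In Δl(3)mbt OSCs 3 were lower, beside 14.2% of all genes, with a median of −0.09 beside 0.03. nito, a writer subunit, fell by 0.18 in OSCs and 0.36 in Δl(3)mbt OSCs on the log2 scale, and Ythdc1, the nuclear m6A reader, fell by 0.22 and 0.29.

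Of the 14 U1 and U2 snRNP proteins found, the partners of Snf in the spliceosome, 7 were lower and 1 higher in fGS/OSS than in OSCs, with a median of −0.20 beside −0.01 for all genes, of which 31.3% were lower. snf fell there too. snRNP-U1-C, a U1 protein, had 213 normalized counts in fGS/OSS and 326 in OSCs (−0.61), while U2A, the partner of the Snf protein on the U2 RNA, had 497 in fGS/OSS and 356 in OSCs (0.48). In vas-GFP+ cells U2A was lower (119 against 229 in vas-GFP− cells, −0.97) and SmD1 higher (0.70), and the other 12 were not called. noi, a protein of the U2 snRNP, was the 1 of the 14 called in Δl(3)mbt OSCs against OSCs (−0.33). With ovo-FLAG 4 of the 14 were lower in OSCs, beside 10.3% of all genes, with a median of −0.15 beside −0.01. In Δl(3)mbt OSCs 1 was lower, beside 14.2% of all genes, with a median of 0.06 beside 0.03.

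The sex determination hierarchy below Sxl holds 6 genes. In vas-GFP+ cells fru, which encodes a transcription factor, was the 1 called, with 114 normalized counts against 1033 in vas-GFP− cells (−3.21). The median of the 6 was −1.24 there, beside −0.07 for all genes, of which 19.7% were lower. In fGS/OSS against OSCs all 6 were called, 3 in each direction, where 30.3% of all genes were higher and 31.3% lower, and the median was 0.00 beside −0.01. dsx, which encodes the transcription factor that directs somatic sex, had 1431 normalized counts in fGS/OSS and 8798 in OSCs (−2.61). tra, the splicing regulator that Sxl switches on in females, had 305 in fGS/OSS and 137 in OSCs (1.15). dsx had 8844 normalized counts in Δl(3)mbt OSCs and was not called against OSCs (0.02). With ovo-FLAG dsx and fru were lower in both lines, dsx by 0.23 in OSCs and 0.29 in Δl(3)mbt OSCs on the log2 scale.

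Of the 8 reported Sxl targets and dosage compensation genes, 4 were higher and 2 lower in vas-GFP+ than in vas-GFP− cells, with a median of 1.14 beside −0.07 for all genes, of which 16.0% were higher and 19.7% lower. nos, the translational repressor of germline stem cells, had 1772 normalized counts in vas-GFP+ cells and 18.3 in vas-GFP− cells (6.52). Phf7, which encodes a chromatin reader tied to male germline identity, had 650 in vas-GFP+ cells and 78.7 in vas-GFP− cells (3.00). lncRNA:roX1, an RNA of the male dosage compensation complex, had 14.4 normalized counts in fGS/OSS and 12.8 in Δl(3)mbt OSCs, against 348 in OSCs, falling by 4.55 and 4.76 on the log2 scale. msl-2, the complex subunit that Sxl represses in females, was lower in Δl(3)mbt OSCs (249 against 538 in OSCs, −1.10). Other genes of the list went the other way. Of the 7 tested in fGS/OSS against OSCs, 3 were higher and 2 lower, beside 30.3% and 31.3% of all genes. In Δl(3)mbt OSCs against OSCs 2 of 8 were higher and 2 lower, beside 19.4% and 17.2% of all genes. The list median there was 0.22 beside 0.02.

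Of the 8 genes of the X chromosome signal that first turns Sxl on in the embryo, 6 were tested in the sorted cells and 3 or 4 in the cultured cells. In vas-GFP+ cells da, which encodes a bHLH activator, was higher (0.47), and emc, an antagonist of such factors (−2.42), and upd1, a JAK/STAT ligand (−6.86), were lower. Of all genes 16.0% were higher and 19.7% lower there, and the list median was −0.37 beside −0.07. Of the 4 tested in fGS/OSS against OSCs, 1 was higher and 2 lower, beside 30.3% and 31.3% of all genes. gro, a corepressor, was 1 of the 2 lower (−1.26). In Δl(3)mbt OSCs da was higher than in OSCs (0.60), the 1 called of the 3 tested, beside 19.4% of all genes higher.

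Of 8 genes whose products act with Otu or on otu splicing, 4 were higher and 2 lower in vas-GFP+ cells. Of all genes 16.0% were higher and 19.7% lower there, and the list median was 0.77 beside −0.07. The differentiation factors bam and bgcn went separate ways in the lines. bam, whose product binds Otu as a deubiquitinase cofactor, had 2410 normalized counts in fGS/OSS and 10.0 in Δl(3)mbt OSCs, against 81.5 in OSCs. bgcn, the partner of Bam, had 36.6 in fGS/OSS and 1395 in Δl(3)mbt OSCs, against 69.4 in OSCs. All 4 of these differences from OSCs were called, with log2 fold changes of 4.89 and −2.93 for bam and −0.89 and 4.33 for bgcn in fGS/OSS and Δl(3)mbt OSCs. tral, an RNA-binding protein that works with Otu in the oocyte, was higher in all 5 comparisons with a control, by 0.18 to 1.38 on the log2 scale.

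Of 4 genes that act on ovo or its protein, l(3)mbt was higher in vas-GFP+ cells (0.72) and lower in fGS/OSS than in OSCs (−1.34), and l(3)mbt and Ubr3, a ubiquitin ligase that acts on Shavenbaby processing, were lower with ovo-FLAG in OSCs (−0.26 and −0.25). Of 12 known effectors of Shavenbaby in cuticle hairs, 8 were tested in each ovo-FLAG comparison. With ovo-FLAG 4 were higher in OSCs, beside 13.2% of all genes, with a median of 0.52 beside −0.01. In Δl(3)mbt OSCs 6 were higher, beside 16.2% of all genes, with a median of 0.91 beside 0.03. kkv, the chitin synthase, had 608 normalized counts in OSCs with ovo-FLAG, against 9.37 with the empty vector, and 365 in Δl(3)mbt OSCs with ovo-FLAG, against 12.2 with the empty vector. In fGS/OSS, whose ovo is endogenous, kkv was lower than in OSCs (1.33 against 10.96 normalized counts in OSCs, −2.44), and of the 9 effectors tested there 2 were higher and 3 lower. Without a plasmid 1 of 9 was higher in Δl(3)mbt OSCs than in OSCs, sn, the actin bundler fascin (2.76), and 2 were lower. In the sorted cells, whose ovo is also endogenous, 3 of the 8 effectors tested were higher in vas-GFP+ cells and 0 lower. Of all genes 16.0% were higher and 19.7% lower there, and the list median was 1.05 beside −0.07.

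**Figure D4:**
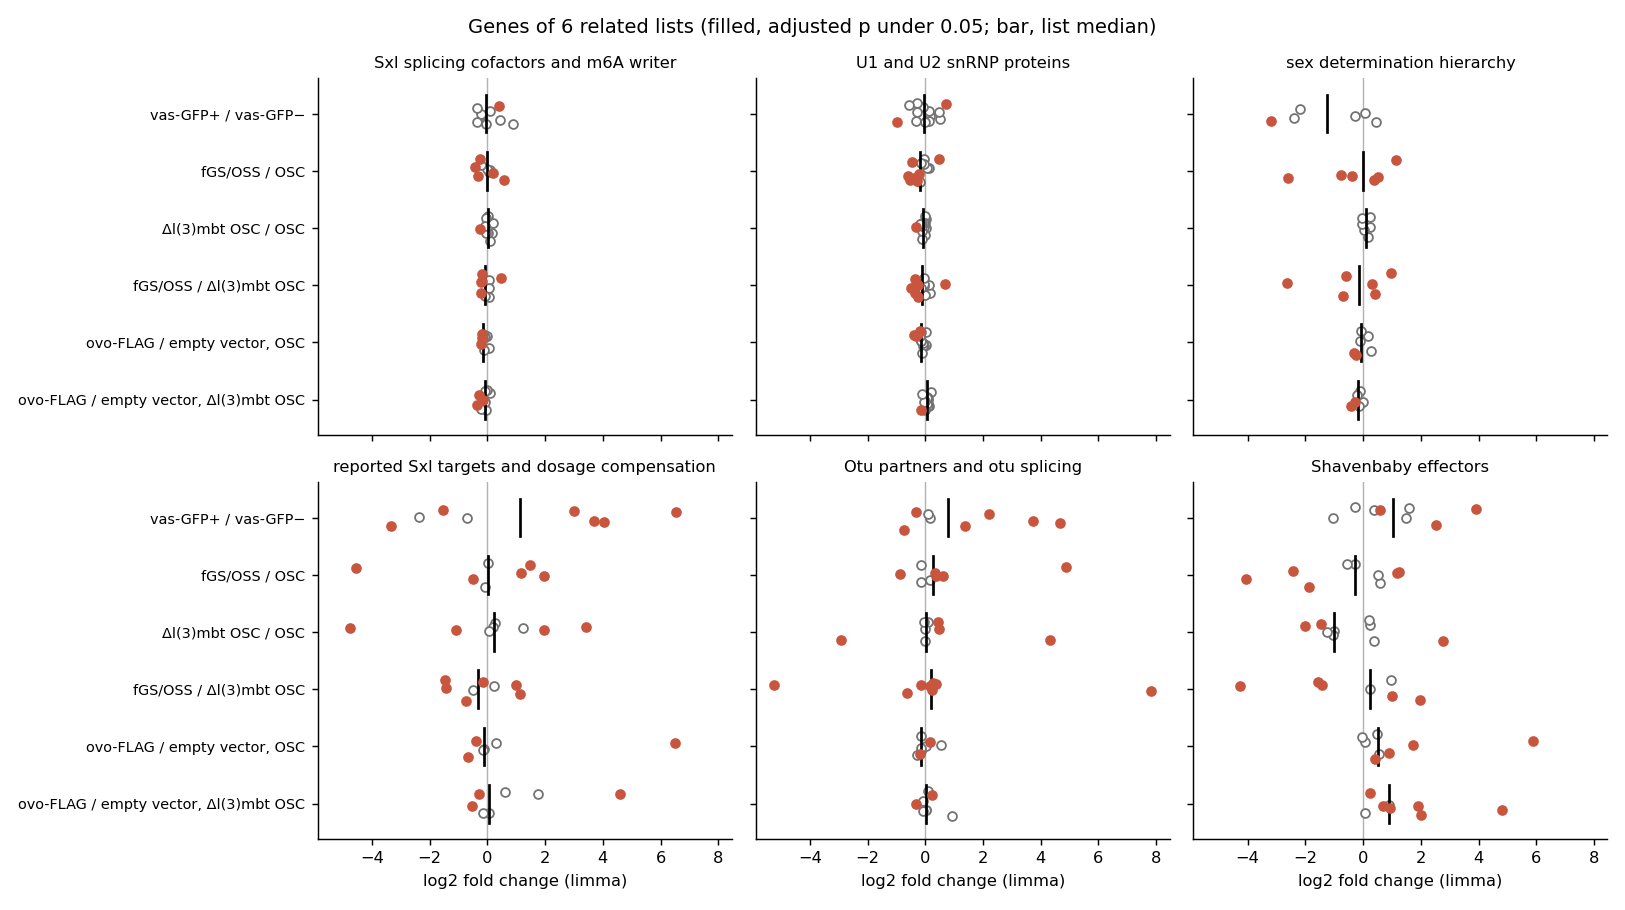
log2 fold change (x axis) of each gene of 6 lists (panels) in the 6 comparisons (rows, named as the condition over its control). Filled points have an adjusted p under 0.05 over all genes tested, open points do not, and bars are list medians. The splicing and snRNP lists stay within a log2 fold change of 1 of no change, while the targets, Otu partners and Shavenbaby effectors spread much wider.

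Germline markers were also higher where ovo was added. With ovo-FLAG 7 of 9 were higher in OSCs, beside 13.2% of all genes, with a median log2 fold change of 2.65 beside −0.01. Their sum there was 861 to 936 normalized counts with ovo-FLAG, against 144 to 174 with the empty vector. Also in Δl(3)mbt OSCs 7 of 9 were higher, beside 16.2% of all genes, with a median of 2.11 beside 0.03. The sum there was 3129 to 3291 with ovo-FLAG, against 1906 to 2082 with the empty vector. otu and stil, at no more than 10 reads in any of these libraries, stayed far below their level in vas-GFP+ cells.

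The genes whose changes were most like those of each member were found by the root mean square difference of log2 fold changes, over 3 comparisons without a plasmid for ovo (7587 genes) and over 5 comparisons with a control for the others (7470 or 7471 genes). Nearest to ovo was vas, the gene of the gate, at a difference of 1.13. vas had log2 fold changes of 7.03 in vas-GFP+ cells, 5.30 in fGS/OSS and 6.42 in Δl(3)mbt OSCs. lncRNA:CR44833, on the strand opposite to ovo, was next at 1.76, with 4.39, 5.47 and 5.06 in the same order. cpx followed at 2.25, CG30484 at 2.64 and Gs1 at 2.97. With the plasmid in OSCs, CR44833 changed by 1.24, against 5.97 for ovo. Nearest to otu were fuss (0.409), Grip (0.468), Rbp9 (0.496), CG42324 (0.512) and CG15047 (0.592), and nearest to stil were stet (0.663), CG42324 (0.825) and sas (0.859). CG42324 is the gene that otu and stil share. otu and stil had passed the filter in 2 of the 5 comparisons, so their unfiltered differences were used. The genes set beside them had to pass it in all 5. Genes as silent in culture as otu and stil could therefore not be listed. Nearest to Sxl were BtbVII (0.0572), Cka (0.0641) and Nf-YC (0.0703), and nearest to snf were Ubc7 (0.0549), CG9601 (0.0594) and Hira (0.0611). The small differences for Sxl and snf go with small changes, which many genes share.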

How the data were processed

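RNA-seq of 30 libraries was used. Adapters were cut with cutadapt (1.18), STAR (2.7.3a) aligned the reads to BDGP6, and featureCounts of Subread (1.5.3) counted them per gene on the strand of the gene. The signal deposited by the authors in the 4 expression tables is that count over a DESeq2 (1.30.1) size factor for each library, with a normalization of its own in each table. Every value was a whole multiple of its column's step (tolerance 0.01 reads), so reads were recovered. The 5 deposited tables of fold changes hold the authors' log2 fold changes, a score (the test statistic) and p-values, and were not used. The sample columns not used were 0.

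Groups were compared with limma (3.58.1, R 4.3.3, trend and robust) on log2(normalized count + 1), which understates changes of low genes, after a filter on a mean of 2 over the samples compared, with a threshold of 0.05 on the adjusted p and no block for replicate numbers. Ratios of few reads have exact 95% intervals, and a count of 0 was taken to allow 3 reads. The alternatives were pseudocounts of 0.5 and 5, no filter or a mean of 10, quantile and TMM scaling, edgeR (4.0.16) and DESeq2 (1.42.0) on the recovered reads, a replicate block, the 3 lines in 1 fit, leaving out each library, and, chosen after seeing the data, scaling to total counted reads.

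The text names the 5 members, l(3)mbt, genes of 15 lists (the called extremes of a list, or genes whose role a sentence turns on) and the nearest genes by change that reach a mean of 50 in a group. The members and lists were chosen with earlier results of these data known. Coordinates come from Ensembl's BDGP6 annotation.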

Additional observations from a re-analysis of the deposited data

Results flagged for a closer look

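ovo in OSCs had 1 library apart from the other 3. Replicate 1 had 17.4 normalized counts and the others 19.9 to 20.1, so the gap was 0.926 of the range, above the critical value of 0.829. otu in fGS/OSS was at 0 in 3 libraries and at 1 read in the other, a gap of 1.0 of the range. 13 groups of 4 libraries were examined in this way, and chance alone flags about 1 in 20 groups of continuous values. That rate does not hold for groups of few reads. With 3 libraries at 0 the gap is 1.0 for any other count, so the otu flag rests on 1 read.

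The effect of ovo-FLAG on ovo differed between the lines, by −4.64 on the log2 scale (Δl(3)mbt OSCs minus OSCs, adjusted p = 3.65e-16), and the count of ovo includes plasmid reads. The effect on snf also differed, by 0.29 (adjusted p = 0.0444), with a rise in Δl(3)mbt OSCs and no call in OSCs.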

How the results depend on the processing

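Over 25 results of single members, 442 alternative values were computed. 421 kept the side of the threshold, 16 lost a call, 5 gained one and 0 reversed a call. Estimates that were called in neither fit could change sign among the 421. Sxl with ovo-FLAG in OSCs, for example, went from −0.0381 to 0.0375 without ovo-FLAG replicate 2. Of 127 counts of called genes 3 moved by over 1.5 times, the sorted cells without vas-GFP− replicates 1, 2 or 3 (2344, 2379 and 2359 genes, range 2344 to 4468 over the libraries left out, against 3738). Scaling to total counted reads gave snf 0.86 in the sorted cells (adjusted p = 0.0154). Quantile normalization gave Sxl −0.21 in fGS/OSS (adjusted p = 0.0202), Sxl 0.22 in Δl(3)mbt OSCs (adjusted p = 0.0534) and stil 1.36 with ovo-FLAG in Δl(3)mbt OSCs (adjusted p = 0.123). For otu in that comparison edgeR gave 1.98 (adjusted p = 0.0424). The difference of the ovo-FLAG effect on snf was 0.29 with no filter (adjusted p = 0.0658), 0.28 with TMM (adjusted p = 0.0596) and 0.29 with DESeq2 (adjusted p = 0.0586). The cause of these changes was not tested. With all 5 comparisons, 3 of the 5 genes nearest to ovo were shared.

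Leaving out 1 library gave 5.34 to 6.51 for stil in the sorted cells (highest without vas-GFP− replicate 2), 0.24 to 0.63 for snf in the sorted cells, −0.14 to −0.0266 for Sxl in fGS/OSS against OSCs, 2.13 to 2.65 for stil with ovo-FLAG in Δl(3)mbt OSCs (no value without ovo-FLAG replicate 3, where stil failed the filter) and 0.235 to 0.33 for the difference of the effect on snf, whose call was lost in 9 of 12.

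Total scaling moved the share of called genes that were higher to 70.0% (44.8% with the deposited scaling) in the sorted cells, 38.9% (53.1%) in Δl(3)mbt OSCs against OSCs and 66.5% (53.3%) with ovo-FLAG in Δl(3)mbt OSCs. There the sorted cells had ovo at 6.91, otu at 6.16, stil at 6.15 and Sxl at 0.94.

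Same-numbered replicates correlated at −0.054 to 0.142 and in no comparison all over 0.1. The main fits had no block for replicate numbers. A replicate block changed no call of a member and gave 3355, 5702, 3253, 6756, 2746 and 2802 called genes in the 6 comparisons and 1066 for the difference, against 3738, 5870, 3510, 6799, 2122, 2832 and 839. With ovo-FLAG in OSCs each library correlated best with its own number (0.114, 0.033 and 0.074), and the block gave more calls there. Whether these replicates were paired is not known. otu and stil in cultured cells are limited by depth.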

Other observations

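In poly(A) RNA with the empty vector, l(3)mbt averaged 2273 ± 56.9 normalized counts in Δl(3)mbt OSCs and 2296 ± 32.9 in OSCs (SD, n = 3 each). The tables were normalized apart, and the difference was not tested. Some markers of other cells also differed between the lines. The muscle markers summed to 39.8 to 59.8 normalized counts in fGS/OSS and 78.6 to 126 in Δl(3)mbt OSCs, against 5267 to 7055 in OSCs, where Act57B, a muscle actin gene, averaged 5663. The haemocyte markers summed to 1640 to 2273 in vas-GFP+ cells, against 42061 to 43042 in vas-GFP− cells, most of it Col4a1, a basement membrane collagen that follicle cells also express. Of the other markers tested in the sorted cells, the fat body lipoprotein gene apolpp was higher in vas-GFP+ cells (129.6 normalized counts, against 9.29 in vas-GFP− cells). So were 3 of 4 testis markers, beside 16.0% of all genes, among them CycB3, which ovaries also express.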
